A study of Rattus norvegicus with 63 samples.

Results

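The 6 genes described here are Gclc, Gclm, Hmox1, Nqo1, Txnrd1 and Mt2A, which serve glutathione synthesis and other antioxidant functions. They are 6 of the 10621 genes that either array table names by 1 symbol. They were chosen by symbol with earlier results of these data known, so counts of members called describe them and are no test of the set. Every probe set of these symbols was taken: 8 on the main array type and 10 on the second. A probe set is a group of short probes for 1 transcript. All 8 passed the filter on dim probe sets on the main type and 8 of 10 on the second.

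Kidneys of rats were sampled without treatment (0 h) and 16 times between 0.25 and 72 h after the synthetic glucocorticoid methylprednisolone had been injected. On the main type 4 libraries come from 0 h and 3 from every other time, which makes 52. The second type covers 0 h with 4 libraries and both 2 h and 6 h with 3. The labels give no strain, age, sex, dose or hour of day, and they name no vehicle-injected group. Untreated libraries exist at 0 h alone, so the injection, the hour of day and the time since injection cannot be told apart. Levels are signals, that is scaled intensities on a linear scale, which cannot be compared between probe sets. Differences are on the scale of log2(signal + 7.63) on the main type and of log2(signal + 3.56) on the second, and are given ± the standard error of the limma fit.

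Glutathione is the main small thiol of the cell, and the kidney tubule both makes and breaks it down. Its synthesis starts with glutamate-cysteine ligase, in which Gclc is the catalytic subunit and Gclm the modifier subunit that raises the affinity for glutamate. Nqo1 reduces quinones, Txnrd1 regenerates thioredoxin with NADPH, and Hmox1 opens the haem ring to release iron, carbon monoxide and biliverdin. These genes are textbook targets of the transcription factor NRF2 (gene Nfe2l2), which binds antioxidant response elements. Mt2A encodes a metallothionein, a small protein rich in cysteine that binds zinc and copper, and metallothionein genes are known to respond to metals and glucocorticoids.

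Promoter windows are shown for Mt2A, whose signal rose after the injection, and for Gclm, whose Gclc partner fell while it passed no test. Both are the 250 bases before the annotated start in the RefSeq table of build GRCr8. Mt2A lies at chr19:10838709-10838958 on the minus strand and Gclm at chr2:213031885-213032134 on the plus strand. Capitals mark matches to the core of the antioxidant response element and, in Mt2A alone, also to a loose form of the metal response core.
Mt2A: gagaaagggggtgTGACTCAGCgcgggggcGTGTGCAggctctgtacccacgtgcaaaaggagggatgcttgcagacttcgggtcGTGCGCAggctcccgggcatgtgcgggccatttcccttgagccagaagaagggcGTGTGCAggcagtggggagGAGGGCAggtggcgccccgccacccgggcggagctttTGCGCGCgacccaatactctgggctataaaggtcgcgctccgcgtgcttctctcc
Gclm: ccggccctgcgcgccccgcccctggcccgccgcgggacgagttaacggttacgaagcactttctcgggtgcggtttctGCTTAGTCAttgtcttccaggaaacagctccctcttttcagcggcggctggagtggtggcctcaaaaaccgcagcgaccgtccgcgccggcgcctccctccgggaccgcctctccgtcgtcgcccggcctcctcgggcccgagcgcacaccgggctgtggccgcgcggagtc
The motifs were searched on both strands of these 250 bases. The core TGACNNNGC of the antioxidant response element had 1 match in each of the windows of Mt2A and Gclm and 1 in the second of 2 windows of Txnrd1. No match to it lay in the windows of Gclc and Nqo1, and 10.1% of all 33469 windows of the table hold one. For the metal response core TGCRCNC, where R is A or G, the looser pattern TGCNCNC was searched. It had 5 matches in the window of Mt2A and 2 in that of Gclm, not marked there. The marked GAGGGCA of Mt2A matches the looser pattern alone. At least 1 match to the looser pattern stands in 43.4% of all windows. The full palindrome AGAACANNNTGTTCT of the glucocorticoid response element had no match in any member's window, and 0.012% of all windows hold it. Windows were listed for 5 of the 6 members, without Hmox1. A match says only that these letters are present.

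The labelled tissue was borne out by its markers. All 11 proximal tubule markers were tested and their summed signal lay between 21700 and 36476 in all libraries. Albumin was at 36.4 at 0 h. The 4 adrenal markers summed to at most 213 and the 3 adipose markers on the array to at most 186 in any library. In 6 libraries Fga, the fibrinogen alpha chain gene, was above 1000 at a time where most libraries were below it: 0.25 h replicate 2, 0.5 h replicate 3, 1 h replicate 2, 5 h replicate 2, 7 h replicate 3 and 8 h replicate 1. These are called the libraries high in Fga below. Fga was also above 1000 in 2 of 3 libraries at 2 h and in all 3 at 4 h (1863 to 2149), and these are not among the 6. The sample 5 h replicate 1 was hybridised to 2 arrays, averaged here. The 3′ to 5′ ratio of the Gapdh control probe sets was 47.5 on array a of that pair. It was 0.976 to 1.78 on the other 52 arrays. Gclc 1370688_at had 232 on array a and 1299 on array b, and Gclc 1372523_at had 1481 and 1654. The part of the ratio in these signals was not tested. Nothing in the labels ties the replicate numbers to separate animals, so the spread behind each p-value may be technical.

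The catalytic subunit Gclc fell, Mt2A rose, and the other 4 genes passed no test over all times. The moderated F test over all 16 differences from 0 h called 3 of 8 member probe sets, both of Gclc (adjusted p = 0.00816 and 0.0207) and that of Mt2A (adjusted p = 5.00e-08). It called 16.1% of all 9520 probe sets tested. Times were pooled into 5 windows, each compared with 0 h, and these comparisons share the 4 libraries at 0 h. The plot of differences by window shows them side by side.

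**Figure D1:**
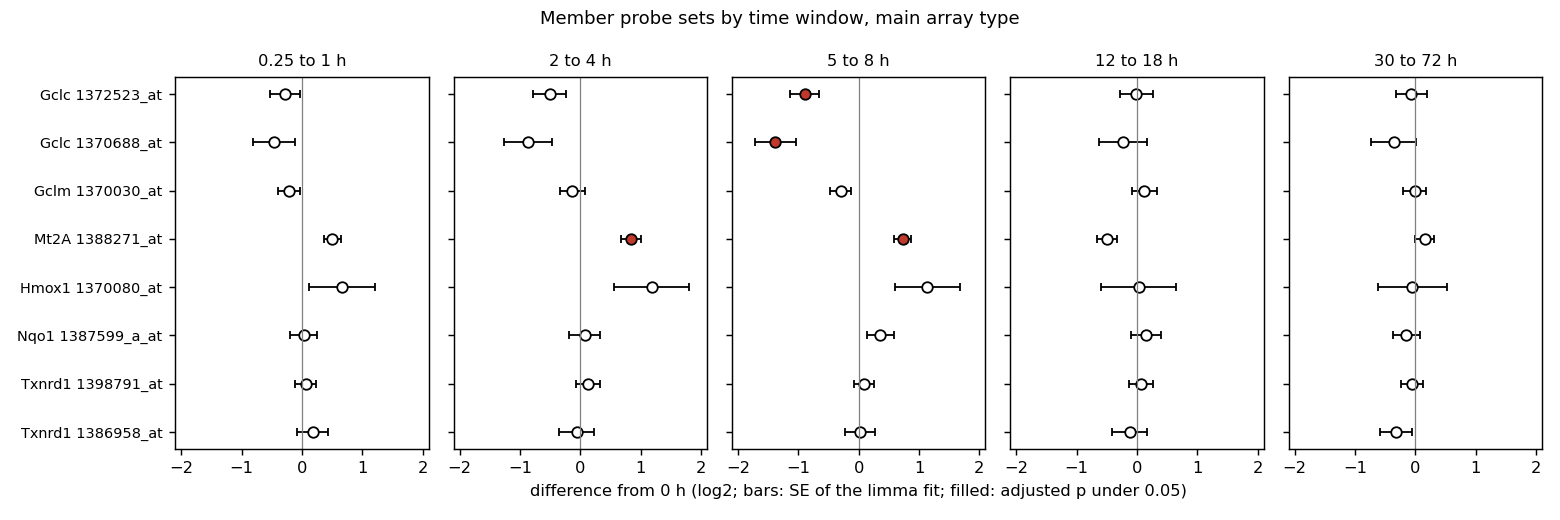
Difference from 0 h on the log2 scale (horizontal axis) for the 8 member probe sets (rows) in each of 5 time windows (panels), with bars for the standard error of the limma fit and filled points for an adjusted p under 0.05. Filled points appear for Mt2A at 2 to 4 h (0.84) and 5 to 8 h (0.73) and for both Gclc probe sets at 5 to 8 h (-0.89 and -1.38).

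Gclc, the rate-limiting enzyme of glutathione synthesis, was lower at 5 to 8 h than at 0 h on both of its probe sets. On the brighter one, 1372523_at, the 4 libraries at 0 h had signals of 2918, 2844, 2467 and 2474. At 4 h the signals were 1372, 1453 and 1406, and at 5.5 h they were 1075, 1231 and 1395. All 6 of these libraries lay below every library at 0 h, as did those of 15.9% of probe sets at 4 h and 9.92% at 5.5 h. Over 5 to 8 h the 15 libraries ran from 391 to 2542 with a median of 1691, and 14 of 15 lay below all libraries at 0 h. Such counts of a part of the libraries, here and below, were not made over all probe sets, so how usual they are is not known. The level fell by 0.89 ± 0.24 on the log2 scale, a 1.86-fold difference (limma, adjusted p = 0.0126, 15 libraries against 4).

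The other Gclc probe set, 1370688_at, gave 3117, 3290, 2256 and 3015 at 0 h. At 5.5 h it gave 890, 897 and 899, which is little spread for 3 libraries. Over 5 to 8 h it ran from 163 to 2213 with a median of 1526. All 15 libraries lay below the 4 at 0 h, which held for 1.59% of all probe sets tested. The difference was -1.38 ± 0.34, a 2.60-fold lower level (limma, adjusted p = 0.00583). At 5 to 8 h 3 of 8 member probe sets were called, these and Mt2A, beside 9.71% of all probe sets (4.98% higher and 4.73% lower).

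The 2 lowest Gclc signals came from libraries high in Fga. In 7 h replicate 3 the signals were 391 and 163, and in 5 h replicate 2 they were 562 and 469 (1372523_at and 1370688_at). Replicates 1 and 2 at 7 h had 2268 and 1894 on 1372523_at. Without the 6 libraries high in Fga the differences at 5 to 8 h were -0.60 and -1.04, and both were still called (adjusted p = 0.00161 and 0.00189). The call of 1372523_at was lost without 0 h replicate 1 (-0.85, adjusted p = 0.0539). In a fit with the compared libraries alone both calls were lost (adjusted p = 0.129 and 0.092).

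Gclc was first called at 4 h, on 1370688_at, and its means were lowest at 5, 5.5 and 7 h. Many libraries were below the untreated ones before that. At 0.25 to 1 h 11 of 12 on 1372523_at and 7 of 12 on 1370688_at lay below all libraries at 0 h. How many probe sets have such counts in this window is not known. The differences there were -0.28 ± 0.25 and -0.46 ± 0.35 and were not called (limma, adjusted p = 0.905 and 0.897). On 1372523_at the means of the log2 values correspond to a signal of 2668 before the injection (SD 0.13 in log2, n = 4). They were 2084, 2053, 2277 and 2399 at 0.25, 0.5, 0.75 and 1 h, 2500 at 2 h and 1410 at 4 h. They reached 1194 at 5 h and 1227 at 5.5 h, came to 1599 by 6 h and 2149 by 8 h, and stood at 2584 at 12 h. In single-time tests Gclc passed at 4 h on 1370688_at (-1.38 ± 0.47) and at 5, 5.5 and 7 h on both. At 6 h and 8 h it passed on neither. The tests at 4, 5, 5.5 and 7 h called 13.4%, 6.25%, 5.5% and 4.05% of all probe sets. The Gclc calls at 7 h rest on 1 library. Without 7 h replicate 3 the differences were -0.58 on 1370688_at and -0.36 on 1372523_at (limma, adjusted p = 0.725 and 0.815). The call at 5 h on 1370688_at was lost with array b alone for 5 h replicate 1 (-1.39, adjusted p = 0.0587). Without 5 h replicate 2 the differences at 5 h were -0.62 on 1372523_at and -1.40 on 1370688_at (limma, adjusted p = 0.473 and 0.169). At 5.5 h, where no library is high in Fga, they ran from -1.21 to -1.02 on 1372523_at and from -1.80 to -1.62 on 1370688_at with 1 library left out. Over all members and the 16 times 12 of 128 single-time tests passed, beside 2.67% of all such tests. No single-time call of Gclc held in every fit that left out 1 library.

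At 2 to 4 h Gclc did not pass. Its differences were -0.51 ± 0.28 on 1372523_at (adjusted p = 0.263) and -0.87 ± 0.40 on 1370688_at (adjusted p = 0.162). The window mixes 2 h, where signals on 1372523_at were 2374, 2978 and 2209, with the lower ones at 4 h. In the fit without the libraries high in Fga both passed at the same differences (adjusted p = 0.0155 and 0.017), and in the fit with the compared libraries alone too (adjusted p = 0.00486 and 0.00109). No library of 0, 2 or 4 h was left out in the former.

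Gclc was not called from 12 h on. At 12 to 18 h the difference was -0.01 ± 0.28 on 1372523_at and -0.23 ± 0.40 on 1370688_at. At 30 to 72 h these were -0.07 ± 0.26 and -0.36 ± 0.37. Both probe sets were lower at 5 to 8 h than at 30 to 72 h, by 0.83 ± 0.18 (adjusted p = 6.62e-04) and 1.01 ± 0.26 (adjusted p = 0.00288), a comparison that uses no library of 0 h. The late libraries were not uniform. At 48 h replicate 1 had 1206 on 1372523_at, and replicates 2 and 3 had 2241 and 2354. At 72 h the signals were 3454, 3223 and 3525, while the highest untreated library had 2918.

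**Figure D2:**
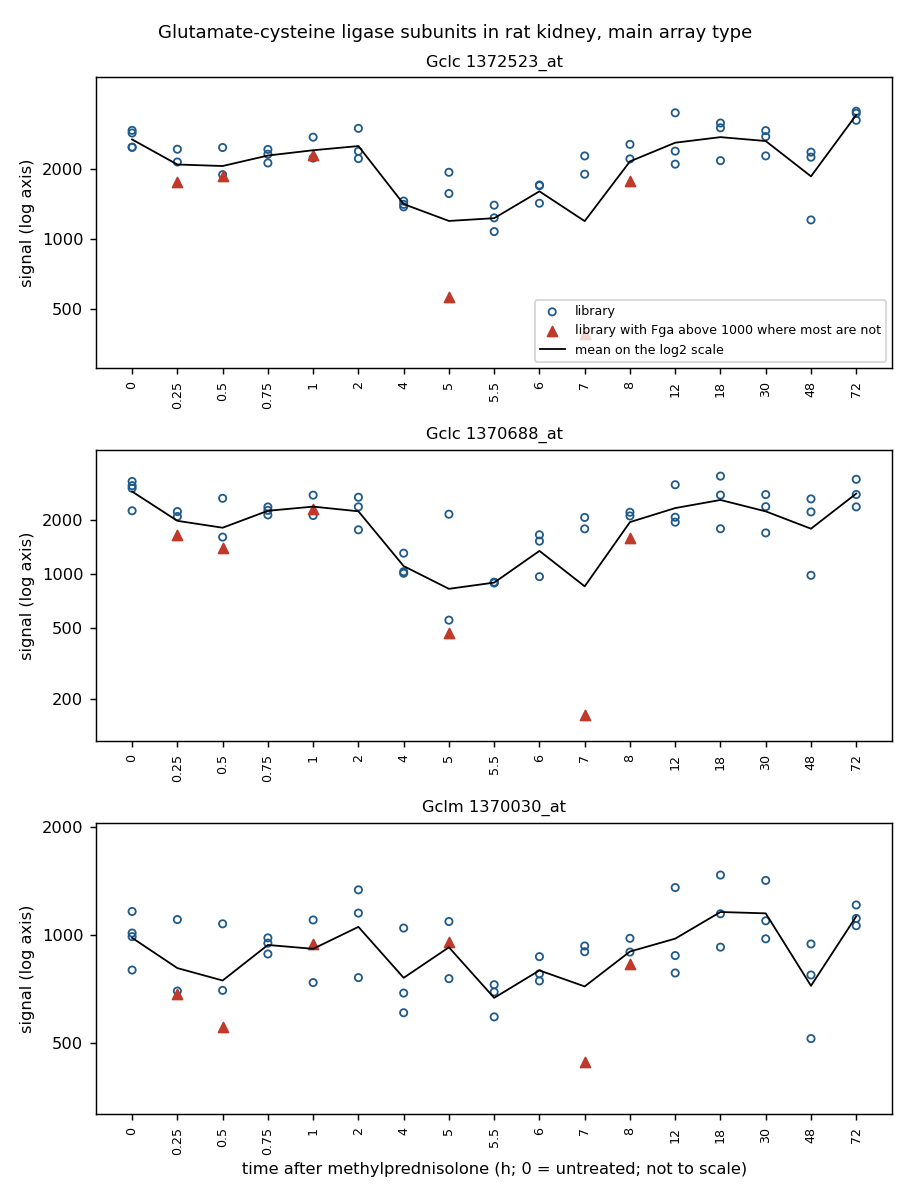
Signal (log axis) of both Gclc probe sets and of Gclm in each library of the main array type, by time after the injection (0 h untreated). Red triangles are the 6 libraries high in Fga, and the line joins the means of the log2 values. Gclc is lowest from 4 to 7 h, and its lowest point is 7 h replicate 3 (391 and 163).

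Gclm, the modifier subunit, showed no call in any window. At 0 h its signals were 1013, 1164, 798 and 990. Over 5 to 8 h the 15 libraries ran from 442 to 1091 with a median of 829, and 7 of 15 lay below all libraries at 0 h. The difference was -0.30 ± 0.18 (limma, adjusted p = 0.334), with a 95% interval from -0.65 to 0.05. At 5.5 h Gclm had 590, 726 and 693, below all libraries at 0 h, as did 9.92% of probe sets. Its difference there, -0.55, did not pass (adjusted p = 0.226), but it did with array weights (-0.56, adjusted p = 0.0416) and with the compared libraries alone (-0.55, adjusted p = 0.046). Its lowest library was again 7 h replicate 3, at 442.

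The subunits were set against each other within each library, as the log2 value of Gclc 1372523_at minus that of Gclm. At 5 to 8 h this difference was 0.59 lower than at 0 h (SD 0.57 over 15 libraries and 0.16 over 4; two-sided exact permutation test, p = 0.0441, adjusted over 5 windows p = 0.179). At 2 to 4 h it was 0.37 lower (exact p = 0.0714, adjusted p = 0.179). In the other windows the change was between -0.12 and -0.06. With the other Gclc probe set the changes were -0.74 at 2 to 4 h and -1.08 at 5 to 8 h, and all 5 windows passed (adjusted p from 0.0159 to 0.0364). Without the libraries high in Fga the change on 1372523_at at 5 to 8 h was -0.39 (adjusted p = 0.0275).

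In whole kidney, fewer cells of a type and less RNA per cell cannot be told apart. The summed signal of the 11 proximal tubule markers was 26308 to 30384 at 0 h and 21700 to 31708 at 5 to 8 h, lowest in 7 h replicate 3, the library with the lowest Gclc. Of these markers 1 rose and 2 fell at 5 to 8 h: Cubn, an endocytic receptor, rose by 0.66, and the organic anion transporters Slc22a6 and Slc22a8 fell by 0.49 and 0.41. Of the 7 podocyte and endothelial markers 3 fell at 5 to 8 h, with sums of 754 to 1657 against 1391 to 2010 at 0 h. Over all probe sets 4.98% rose and 4.73% fell in this window. The part of the proximal tubule, podocyte and endothelial markers in the result for Gclc was not tested.

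Mt2A rose within hours and was near or under the untreated level by 12 h. Its signals at 0 h were 4524, 2868, 2556 and 2453, and replicate 1 stood well above the other 3. At 2 h it had 4685, 4768 and 5469, and at 4 h 4780, 6218 and 6626. All 6 of these libraries lay above all 4 at 0 h, which 5.96% of probe sets did in the same direction. The rise at 2 to 4 h was 0.84 ± 0.16, or 1.79-fold (limma, adjusted p = 2.73e-04, 6 libraries against 4). It was the 1 member probe set of 8 called there, beside 9.97% of all probe sets (5.17% higher and 4.8% lower).

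Mt2A was also called higher over the pooled window of 5 to 8 h. The 15 libraries ran from 3970 to 6593 with a median of 4943, and 10 of 15 were above all libraries at 0 h. The difference was 0.73 ± 0.14, or 1.66-fold (adjusted p = 2.18e-04). Single-time tests called Mt2A at 2, 4, 5, 5.5 and 6 h, beside 4.12% of all probe sets at 2 h and 5.37% at 6 h. It was not called at 7 h (0.49 ± 0.19, limma, adjusted p = 0.152) or 8 h (0.64 ± 0.19, adjusted p = 0.0633). The calls at 2 h and 5 h were lost in some of the fits that left out 1 library (lowest values 0.63 and 0.62), and those at 4, 5.5 and 6 h in none. The highest mean came at 5.5 h, where the libraries had 6593, 5841 and 5858 (1.02 ± 0.19, adjusted p = 2.62e-04). Leaving out the libraries high in Fga gave 0.72 at 5 to 8 h (adjusted p = 1.84e-04), and no alternative ended the call in either window.

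In the first hour Mt2A had signals of 3394 to 7344 over 12 libraries, and 4 of 12 lay above all libraries at 0 h. The difference was 0.50 ± 0.14 and missed the threshold (adjusted p = 0.114), as did all 8 member probe sets in this window, where 0.662% of all probe sets were called. Without 0 h replicate 1 the difference was 0.70 and passed (adjusted p = 0.01), and without 0.5 h replicate 2 it was 0.56 (adjusted p = 0.0278).

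At 12 h Mt2A had 1917, 2060 and 2374, and at 18 h 1844, 2485 and 2154. So 5 of 6 libraries lay below all libraries at 0 h. The difference at 12 to 18 h was -0.50 ± 0.16 (unadjusted p = 0.00328, adjusted p = 0.355) and was not called. None of the 8 member probe sets was called in this window or at 30 to 72 h, beside 0.389% and 0% of all probe sets (limma, with 544 and 517 of 9520 at an unadjusted p under 0.05). At 30 h the signals were 2296, 2018 and 3383, and at 72 h 4931, 4663 and 3270. Mt2A was higher at 5 to 8 h than at 30 to 72 h by 0.58 ± 0.10 (adjusted p = 4.23e-05).

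The neighbouring metallothionein gene Mt1, next to Mt2A with no gene between them in GRCr8, had a dim probe set on this array. It was at 20.3 at 0 h and 18.6 at 5 to 8 h, under the signal of 52.3 needed for testing. Metallothionein genes are close in sequence, and the files do not show whether other family members bind the Mt2A probes. Macrophage and neutrophil markers moved in the same windows: 6 of 10 tested rose at 2 to 4 h and 5 of 10 at 5 to 8 h. Over all probe sets 5.17% and 4.98% rose there. The summed signal of these markers was 1569 to 1937 at 0 h, 2787 to 3329 at 2 to 4 h and 2068 to 3840 at 5 to 8 h. Their part in the result for Mt2A was not tested.

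Hmox1 passed in no window against 0 h, and its highest signals came from single libraries. Its signals at 0 h were 80, 76.2, 74.9 and 59. At 5 h replicate 2 had 3417 while the other libraries had 70.4 and 79.7, and at 8 h replicate 1 had 1777 beside 275 and 191. All 3 libraries at 8 h lay above those at 0 h, as for 6.69% of all probe sets in this direction. At 0.5 h replicate 3 had 577 beside 91.8 and 103. At 2 h replicates 1 and 3 had 359 and 453, and replicate 2 had 88.8. All 6 libraries at 2 to 4 h lay above all libraries at 0 h, but 4 h replicate 2, at 82.7, only just. That held for the 5.96% of probe sets given above. The differences were 1.18 ± 0.62 at 2 to 4 h (adjusted p = 0.232) and 1.14 ± 0.54 at 5 to 8 h (adjusted p = 0.198), and neither passed. The single-time differences were 1.67 ± 0.73 at 2 h (adjusted p = 0.235) and 2.54 ± 0.73 at 8 h (adjusted p = 0.0567), where 2.01% of all probe sets were called.

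At each of the 6 times with a library high in Fga, that library also had the highest Hmox1 of its time. Hmox1 in them, in order of time, was 202, 577, 167, 3417, 268 and 1777. In 5 h replicate 2 Lcn2, a gene of the acute phase and of injured tubules, was at 3970, and Havcr1, a marker of tubular injury, at 1813. The highest Havcr1 signal at 0 h was 217. For Txnrd1 these libraries were the highest of their time in 6 of 6 cases on 1398791_at, and on 1386958_at the highest in 4 of 6 and the lowest in 1. They had the lowest Gclc, on either probe set, in 5 of 6, and the lowest Gclm in 4 of 6. Mt2A was highest in them in 3 of 6 cases, and Nqo1 was highest in 2 and lowest in 2. Such places were not counted over all probe sets, so how usual they are in these libraries is not known. At 2 h, where replicates 1 and 3 were high in Hmox1, Fga was 2139 and 2509 there and 523 in replicate 2. At 4 h, by contrast, Fga was 1863 to 2149 in all 3 libraries, and Hmox1 was 82.7 to 146. Liver and acute phase markers summed to 271 to 474 at 0 h and to 13209 in 5 h replicate 2, with albumin at 21 to 108 over 5 to 8 h. The part of injury or of the acute phase in these values was not tested.

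With the libraries high in Fga left out, the Hmox1 difference at 5 to 8 h was 0.49 (adjusted p = 0.181). At 2 to 4 h it stayed at 1.18 and passed (adjusted p = 5.48e-04). In that fit Hmox1 was also called at 2 h (1.67, adjusted p = 8.51e-05) and at 8 h (1.57, adjusted p = 0.00323). From 12 h on the libraries lay between 51.2 and 114. Against 30 to 72 h the libraries of 5 to 8 h were higher by 1.19 ± 0.40 (adjusted p = 0.0257). This call was lost in 3 alternative fits, with a highest adjusted p of 0.139 (limma). Among them was the fit without 8 h replicate 1 (0.99, adjusted p = 0.0515). Without all libraries high in Fga the difference was 0.54 (adjusted p = 0.0159).

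**Figure D3:**
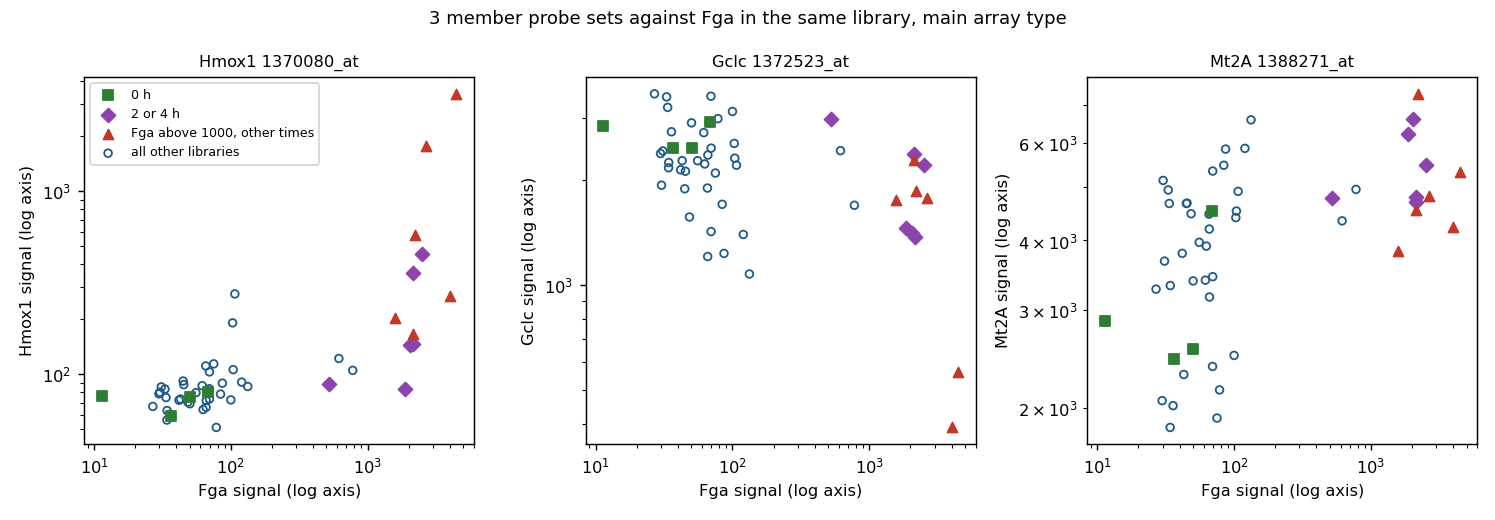
Signal of Hmox1, Gclc 1372523_at and Mt2A (vertical, log axes) against Fga (horizontal, log axis) in the 52 libraries of the main array type, marked by time or by being high in Fga. The 2 highest Hmox1 libraries (3417 and 1777) and the 2 lowest Gclc libraries (562 and 391) are among those high in Fga, while Mt2A is high in libraries at both ends of the Fga range.

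Nqo1 was dim, and its difference from 0 h passed in no window. Its signals were 78.9, 79.2, 71.4 and 65.7 at 0 h, and 57.2 to 150 with a median of 100 at 5 to 8 h. There 12 of 15 libraries were above all libraries at 0 h, a count not made over all probe sets. The difference of 0.36 ± 0.22 did not pass (adjusted p = 0.341). Against 30 to 72 h, where the 9 libraries ran from 29.8 to 95.3, it was higher by 0.51 ± 0.16 (adjusted p = 0.0169). That call was lost in 3 alternative fits, with a highest adjusted p of 0.148 (limma). Among them were the fits without 48 h replicate 2 (0.41, adjusted p = 0.0659) and without 72 h replicate 3 (0.44, adjusted p = 0.0563). In this comparison 5 of 8 member probe sets were called, both of Gclc, Hmox1, Nqo1 and Mt2A, beside 26.2% of all probe sets.

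Txnrd1 passed in no window on either probe set. On 1398791_at the signals were 735, 673, 786 and 624 at 0 h and ran from 537 to 1512 at 5 to 8 h with a median of 723. The difference was 0.09 ± 0.17 there, with a 95% interval from -0.25 to 0.42. On 1386958_at it was 0.02 ± 0.25. The highest library on both was 5 h replicate 2, at 1512 and 936. The lowest on 1386958_at was 5 h replicate 1 at 114, where the array with the high 3′ to 5′ ratio gave 48.8 and the other 254.

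**Figure D4:**
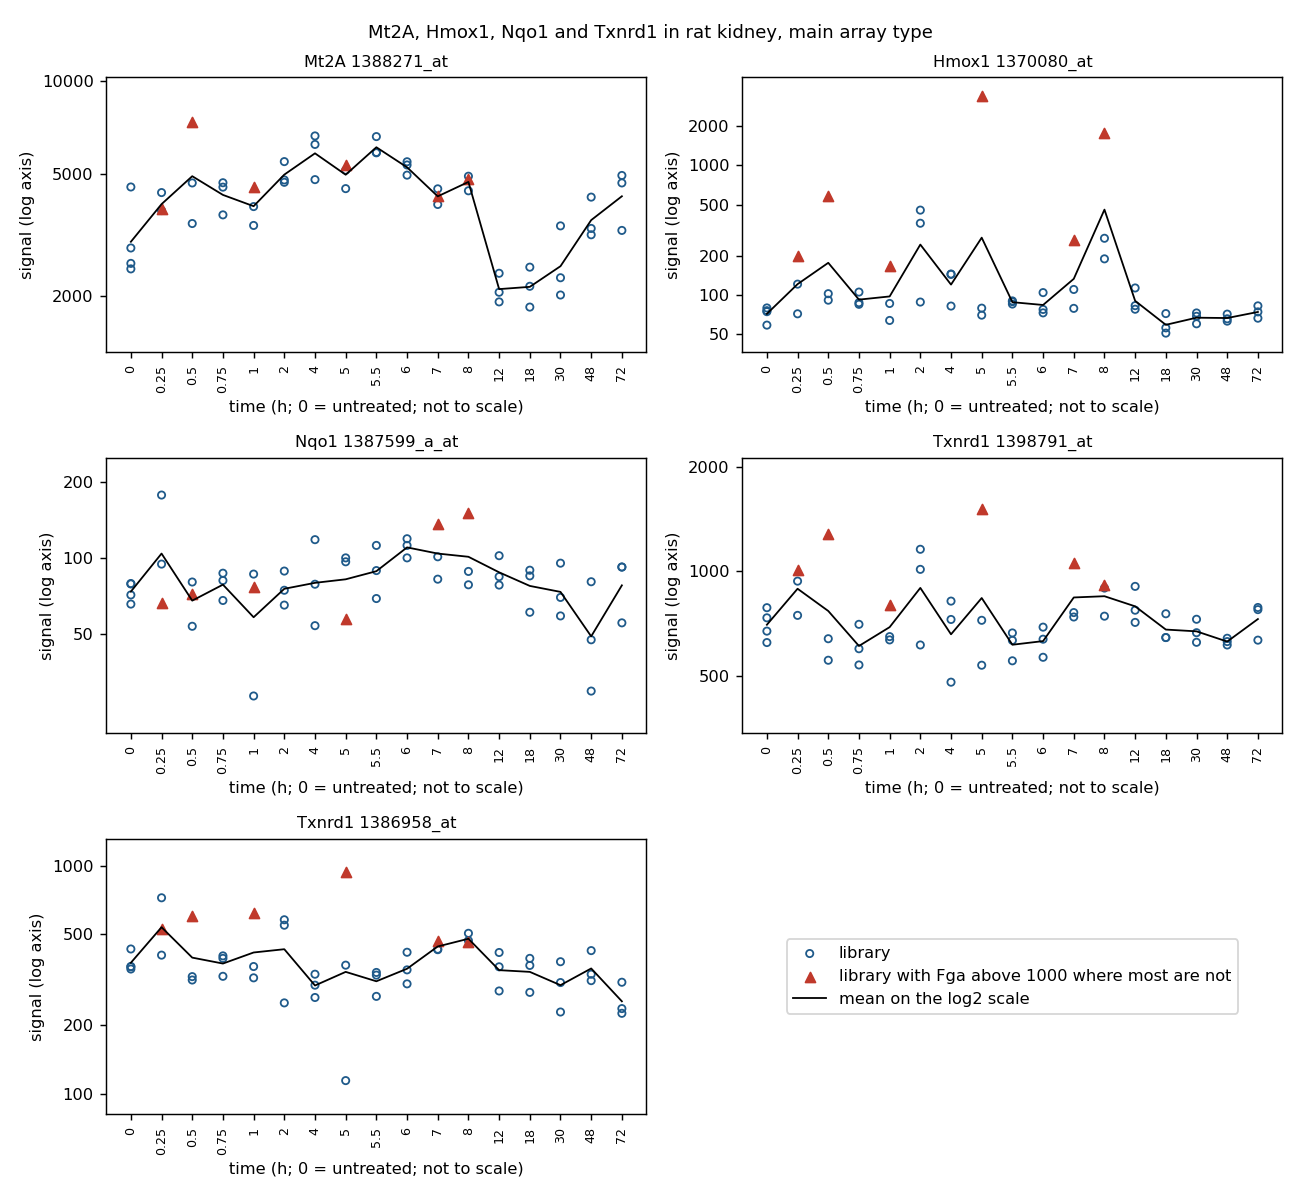
Signal (log axes) of Mt2A, Hmox1, Nqo1 and both Txnrd1 probe sets in each library of the main array type, by time. Red triangles are the 6 libraries high in Fga, and lines join the means of the log2 values. Mt2A rises at all libraries of 2 to 4 h and is at 1844 to 2485 at 12 to 18 h, and Hmox1 reaches 3417 and 1777 in 2 libraries.

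The second array type, at 2 h and 6 h, called no member probe set of the 8 tested, beside 9.8% of all at 2 h and 2.35% at 6 h (limma, with 1524 and 559 of 5244 at an unadjusted p under 0.05). Its samples carry the same numbers as those of the main type, so it is no independent support. Gclc had 1567, 1586, 1249 and 1221 at 0 h and 685, 613 and 263 at 6 h, with no overlap, as for 8.01% of all probe sets in this direction. The difference at 6 h was -1.53 ± 0.38 (adjusted p = 0.0666), and it passed with array weights (-1.57, adjusted p = 0.0124). At 2 h Gclc overlapped the untreated libraries, with 1525, 2354 and 767.

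Hmox1 on its tested probe set had 50.2, 76.4, 63.1 and 66.1 at 0 h and 545, 62.6 and 645 at 2 h. On this probe set, as on the main type, numbers 1 and 3 were high and number 2 was not. On the other, J02722cds_at, which was too dim to be tested, the signals were 11.8, 6.2, 6.51 and 2.91 at 0 h and 246, 49.6 and 196 at 2 h, so number 2 was higher there too. The difference of 2.1 ± 0.61 missed the threshold (adjusted p = 0.0503). At 6 h the signals were 100, 80 and 89. Nqo1 had 61, 34.8, 23.3 and 20 at 0 h and 60.7, 60.4 and 85.8 at 6 h (1.02 ± 0.34, adjusted p = 0.21).

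The sample 2 h replicate 2 had unlike values on different probe sets of 1 gene. The labels give its array the letter a and those of replicates 1 and 3 the letter b, without saying what the letters mean. For Gclm it gave 1142, 405 and 53.1 on S65555_at, S65555_g_at and rc_AI233261_i_at, where the untreated libraries gave 485 to 821, 506 to 730 and 559 to 717. For Txnrd1 it gave 313 on U63923_at and 172 on rc_AA891286_at, beside 520 and 1256 in replicate 1 and 480 and 1289 in replicate 3. Gclm therefore had differences at 2 h of 0.33, -0.44 and -1.83 on its 3 probe sets, none called. Mt2A has no probe set of its own there: the 1 that lists it also lists another metallothionein gene and was not used.

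**Figure D5:**
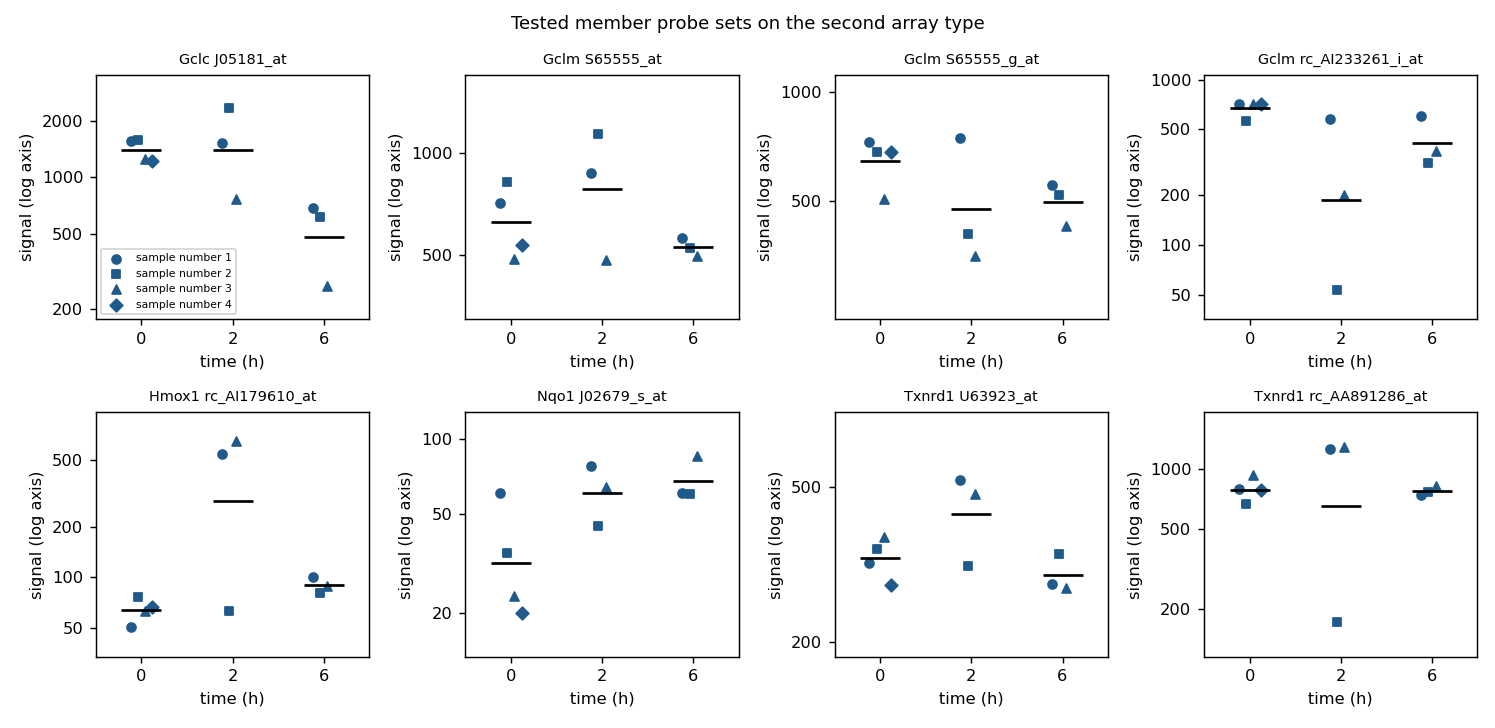
Signal (log axes) of the 8 tested member probe sets on the second array type at 0, 2 and 6 h, with a symbol per sample number and a bar at the mean of the log2 values. Gclc at 6 h (263 to 685) lies below all libraries at 0 h, and at 2 h Hmox1 is high in 2 of 3 libraries (545 and 645).

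Other genes of the same pathways were read from lists, with the brightest probe set per gene. Of all probe sets tested, 5.17% were called higher and 4.8% lower at 2 to 4 h. At 5 to 8 h these shares were 4.98% and 4.73%. On the second type they were 4.82% and 4.98% at 2 h and 1.56% and 0.782% at 6 h. The count of each list is to be read beside them. Of 11 tested genes for glutathione supply and synthesis none rose and 2 fell at 5 to 8 h, with a median difference of -0.13 against -0.03 over all probe sets. With the libraries high in Fga left out, 1 rose and 2 fell. Those 2 were the glutamate and cysteine transporter Slc1a1, which fell by 0.75 ± 0.10 (adjusted p = 8.37e-07), and the aminopeptidase Anpep, which fell by 0.43 ± 0.12 (adjusted p = 0.0168). At 2 to 4 h Slc1a1 alone fell, by 0.35 ± 0.12, and 2 genes fell with those libraries left out. Glutathione synthetase Gss, the second enzyme of the pathway, was at 841 at 0 h and 725 at 5 to 8 h and was not called there. Against 30 to 72 h 6 of 11 were lower at 5 to 8 h, beside 13.8% of all probe sets, with a median of -0.33. None was higher, and 1 was with the libraries high in Fga left out. Other lists also had calls in this comparison, given as higher and lower, beside 12.5% and 13.8% of all probe sets. Glutathione use had 3 and 3 of 21, thioredoxin and peroxiredoxin 3 and 2 of 14, and haem and iron 1 and 3 of 7. Superoxide removal had 0 and 1 of 6, zinc and metallothionein 1 and 1 of 7, and NRF2 control 2 and 0 of 7. NADPH supply had 0 and 2 of 5, and other NRF2 targets 1 and 2 of 10.

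Among 21 genes that use or recycle glutathione 3 rose and none fell at 5 to 8 h, with a median of -0.04. Over all probe sets 4.98% rose and 4.73% fell in this window. The microsomal transferase Mgst2 rose by 1.05 ± 0.23 (adjusted p = 0.00108), glutaredoxin Glrx by 0.66 ± 0.21 and the transferase Gsta1 by 0.30 ± 0.10. At 2 to 4 h Mgst2 alone rose, by 0.85 ± 0.26. The count at 5 to 8 h was 2 instead of 3 with the libraries high in Fga left out. On the second type 1 of 17 was called at 2 h, Gpx3, which rose by 0.70 ± 0.12.

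Of 14 thioredoxin and peroxiredoxin genes 2 rose at 2 to 4 h and none fell, beside 5.17% and 4.8% of all probe sets. Sesn1, a sestrin, rose by 1.5 ± 0.18 (adjusted p = 1.52e-07), and Txnip, which binds and inhibits thioredoxin, rose by 1.18 ± 0.19 (adjusted p = 2.92e-05). Both were already called higher at 0.25 to 1 h, Txnip by 0.83 ± 0.17 and Sesn1 by 0.69 ± 0.16. In that window 0.62% of all probe sets were called higher. At 5 to 8 h the methionine sulfoxide reductase Msrb1 alone passed, rising by 0.38 ± 0.11. On the second type 2 of 7 were called at 2 h, Txnip (1.18 ± 0.23) and Prdx6 (0.94 ± 0.21). Of 6 tested genes for superoxide and peroxide removal none passed in either window (1 rose at 2 to 4 h with the libraries high in Fga left out). On the second type 1 of 5 was called at 2 h, Sod2, which rose by 1.23 ± 0.26 (limma, adjusted p = 0.0156).

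In the haem and iron list 2 of 7 rose and 1 fell at 2 to 4 h, beside 5.17% and 4.8% of all probe sets. The copper oxidase ceruloplasmin, Cp, rose by 1.25 ± 0.19 and Alas1, the first enzyme of haem synthesis, by 1.10 ± 0.34, while the iron exporter Slc40a1 fell by 0.97 ± 0.18. At 5 to 8 h 1 rose and 3 fell. Cp rose by 1.10 ± 0.17, Slc40a1 fell by 0.53 ± 0.16, and Blvra, the biliverdin reductase that acts after Hmox1, fell by 0.49 ± 0.16 (adjusted p = 0.0454). The third was Fech, the last enzyme of haem synthesis, which fell by 0.41. With the libraries high in Fga left out, 1 of the 7 rose and 1 fell at 5 to 8 h. Cp was also called higher at 0.25 to 1 h (0.72 ± 0.17) and at 12 to 18 h (0.87 ± 0.19). In these 2 windows 0.62% and 0.284% of all probe sets were called higher. On the second type Cp rose and Slc40a1 fell at both 2 h and 6 h, and Hp rose at 2 h.

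Of 7 tested genes for metallothioneins and zinc 2 rose at 2 to 4 h and 1 at 5 to 8 h, all of them zinc transporters. Over all probe sets 5.17% and 4.98% rose in these windows. Slc39a14, which imports zinc, rose by 1.63 ± 0.36 at 2 to 4 h (adjusted p = 0.00196) and by 1.48 ± 0.32 at 5 to 8 h (adjusted p = 0.00111). Slc39a1 rose by 0.79 ± 0.25 at 2 to 4 h.

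Of 7 genes in the NRF2 control list 1 rose at 2 to 4 h, Mafk, a small Maf partner of NRF2, by 0.85 ± 0.20 (adjusted p = 0.00374). None passed at 5 to 8 h. Over all probe sets 5.17% rose at 2 to 4 h, and 9.71% were called in either direction at 5 to 8 h. Nfe2l2 itself had a signal of 458 at 0 h and 541 at 5 to 8 h, and its repressor Keap1 had 155 and 153. Among 10 other NRF2 targets 2 rose at 2 to 4 h, Ugdh by 0.62 ± 0.20 and Osgin1 by 0.60 ± 0.19. At 5 to 8 h 1 rose and 2 fell: Ugdh rose by 0.63 ± 0.18, the quinone reductase Nqo2 fell by 0.53 ± 0.14, and the aldehyde reductase Akr7a3 fell by 0.45 ± 0.15. With the libraries high in Fga left out, 1 fell instead of 2. Of 5 genes that supply NADPH 1 fell at 5 to 8 h, the cytosolic isocitrate dehydrogenase Idh1, by 0.95 ± 0.22 (adjusted p = 0.00282). On the second type Idh1 was called lower too (-0.84 ± 0.20 at 2 h and -1.04 ± 0.20 at 6 h). At 2 to 4 h, leaving out the libraries high in Fga gave 1 gene that fell in place of none in each of 4 lists: glutathione use, metallothioneins and zinc, NADPH supply and other NRF2 targets.

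The time courses of the members were also set beside those of other genes, by Pearson's r over the 17 time means, as a description with no test, since neighbouring times and all genes share libraries. Both Gclc probe sets had r = 0.98 with each other, and Gclc 1372523_at had r = 0.77 with Gclm and -0.60 with Mt2A. The 2 probe sets of Txnrd1 had r = 0.59. The genes most like Gclc were Slc2a13 (r = 0.91), Casq1 and B3galt5 (both r = 0.90), and those most like Gclm were Casq1 (r = 0.89), Pls1 and Arnt2. Most like Mt2A were Tnfrsf21 and Lrg1 (both r = 0.87) and Tsc22d3 (r = 0.86), a textbook glucocorticoid-induced gene. For Hmox1 these were Cnksr3, Bag2 and Cxcl9 (each r = 0.78), for Nqo1 Psme4 (r = 0.79), Nap1l1 and Eif2b2, and for Txnrd1 Eif4e and Eef1e1 (both r = 0.81) and the glutathione peroxidase Gpx2 (r = 0.79).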

How the data were processed

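Kidney RNA of rats was hybridised to Affymetrix arrays, 53 of the main type and 10 of the second. The deposited values are intensities on a linear scale that the authors had scaled, since the trimmed mean of each deposited array lay between 150.03 and 150.04 (main) or 150.19 and 150.23 (second). Which software made them is not stated in the labels or file headers. For arrays their number limits the precision. Array types were analysed separately. Values were taken as log2(intensity + pseudocount), the pseudocount being the 10th percentile of each table (7.63 and 3.56). For 5 h replicate 1 both of its arrays were averaged. Probe sets at or above the 40th percentile of mean log2 level were tested (9520 and 5244, signals of 52.3 and 25.3). The test was the moderated linear model of limma 3.58.1 (R 4.3.3), with a mean-variance trend and Benjamini-Hochberg adjustment over all probe sets tested at 0.05, and the fit was tested on simulated data. All times entered 1 fit, and windows are unweighted means of times. The Gclc minus Gclm difference was tested by exact permutation of libraries.

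Symbols are those of the platform's annotation, brought up to date by gene ID from a RefSeq table of GRCr8, and probe sets with several symbols were not named. Members and lists were chosen with earlier results of these data known. Of each list the text counts the genes passing and names the 3 largest of those. The 3 genes most like each member were taken by Pearson's r. Alternatives were other pseudocounts, no filter, quantile or median normalization, array weights, robust moderation, the replicate block, the compared libraries alone, arrays of letter a alone and each library left out. Leaving out the libraries high in Fga and using array b alone for 5 h replicate 1 were chosen after seeing the data.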

Additional observations from a re-analysis of the deposited data

Results flagged for a closer look

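In the 4 untreated libraries of the main type, Txnrd1 1386958_at in 0 h replicate 2 stood apart at 431, beside 352 to 361 in the others (gap of 0.87 of the range, above Dixon's critical value for 4 samples). On the second type Gclm rc_AI233261_i_at in 0 h replicate 2 stood apart at 559, beside 709 to 717 (gap of 0.95). Chance marks about 1 in 20 such groups.

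The change from 0 h differed between 5 to 8 h and 30 to 72 h for 5 member probe sets, by a direct test between these windows. That test called 26.2% of all probe sets. The difference was -1.01 on Gclc 1370688_at and -0.83 on Gclc 1372523_at. It was 1.19 on Hmox1, 0.58 on Mt2A and 0.51 on Nqo1. The calls of Hmox1 and Nqo1 were each lost in 3 alternative fits.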

How the results depend on the processing

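Counts below are member probe sets called. Array weights moved the count over all times from 3 to 7, at 0.25 to 1 h from 0 to 1, at 2 to 4 h from 1 to 4 and over single times from 12 to 19. The fit with the compared libraries alone gave 4 at 2 to 4 h, 1 instead of 3 at 5 to 8 h and 1 instead of 0 at 6 h on the second type. Without the libraries high in Fga it was 4 at 2 to 4 h. With arrays of letter a alone it was 1 over all times, 3 instead of 5 for 5 to 8 h against 30 to 72 h and 6 over single times. On the second type that setting left replicate 2 alone at 2 h, assumed to vary like the other groups, and gave 2 at 2 h and 1 at 6 h. Array weights gave 1 at each. At 2 h median centring, quantile normalization and no filter gave 1 each and 4 times the pseudocount gave 2. The causes were not tested.

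The replicate block gave 5 over single times and 1 at 6 h on the second type, and the other counts stayed within 1.5 times. Sample numbers did not meet the rule for pairing, which asks for an r over 0.1 in every pair. Noise alone can break so strict a rule, so it cannot decide whether equal numbers belong together. Deviations of libraries with equal numbers had a mean r of 0.06, lowest -0.53, with 153 of 408 pairs over 0.1. Those with different numbers had a mean r of -0.03, with 137 of 864 pairs over 0.1, so equal numbers were somewhat more alike.

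With Gclc 1370688_at the change of Gclc minus Gclm passed in all windows: -0.25, -0.74, -1.08, -0.35 and -0.36. Without the libraries high in Fga it was -0.39 at 5 to 8 h.

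With 1 library left out the counts ran from 3 to 4 over all times, 0 to 1 at 0.25 to 1 h, 2 to 3 at 5 to 8 h, 4 to 6 for 5 to 8 h against 30 to 72 h, 6 to 13 over single times and 0 to 2 at 2 h on the second type. Gclc minus Gclm ran from -0.46 to -0.25 at 2 to 4 h and passed without 2 h replicate 3. The count at 2 h on the second type was 2 without 2 h replicate 2 and 1 without 0 h replicate 1, 0 h replicate 4 or 2 h replicate 1. Over single times it was 6 without 0 h replicate 2 or 4 and 7 without replicate 3. Txnrd1 rc_AA891286_at on the second type, -0.27 and not called at 2 h, ran from -0.75 to 0.69 and was called at 0.69 without 2 h replicate 2. Over all probe sets the count moved by over 1.5 times with array weights (any time 1535 to 4607, 0.25 to 1 h 63 to 146, 2 to 4 h 949 to 2403, 12 to 18 h 37 to 65, second type 6 h 123 to 254). It did so with arrays of letter a alone (any time 911, 5 to 8 h against 30 to 72 h 2497 to 1276, second type 514 to 1386 and 123 to 216). It did so with the compared libraries alone (12 to 18 h 21, second type 338 and 217) and with the block (0.25 to 1 h 35).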
